A study of Mus musculus with 12 samples.

Results

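A set of 10 cytokine and receptor genes by which fibroblasts signal to themselves and to blood cells were followed in mouse embryonic fibroblasts (MEF). They were chosen by name with earlier results of these data known, so counts over them are descriptions. They are Il6, Lif and Il11 of the interleukin-6 family, the receptor chains Il6st and Osmr, and Tslp. The others are the IL-1 family members Il1rn and Il33 and the colony-stimulating factors Csf1 and Csf3. All 10 were among the 12988 genes obtained by summing the deposited transcript values, and 9 passed the filter on low values and were tested. Il33 did not pass it.

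RNA was sequenced from HSF1 KO MEF with LiCl, HSF1 KO MEF, WT MEF with LiCl and WT MEF, with 3 libraries per group and 12 in all. LiCl was given at 20 mM for 48 h, and the other groups received none. LiCl inhibits the kinase GSK3 and is used to activate WNT/β-catenin signaling, and HSF1 is the master transcription factor of the heat shock response. The comparisons therefore ask what LiCl changed in each genotype, whether the responses differed, and how the genotypes differed with and without LiCl. The age of the embryos, the part of Hsf1 that was deleted and the number of embryos or lines behind a group are not stated by the sources read here. The labels call the cells knock-out, whereas 1 legend of the study writes a heterozygous genotype for LiCl-treated MEF. Libraries are numbered 1 and 2 in the labels, and the last of each group carries no number. No source says whether each library had its own culture. The p-values therefore refer to the spread among these libraries, which may be technical. The groups are called knock-out and WT cells from here on, with or without LiCl.

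Interleukin-6, LIF and interleukin-11 bind receptors that share the signaling chain encoded by Il6st. JAK kinases at the receptor then phosphorylate STAT3, which activates genes such as Socs3, a feedback inhibitor. Osmr encodes the receptor chain for oncostatin M, which pairs with the Il6st product. TSLP is a cytokine of epithelial and stromal cells that acts on dendritic cells and other leukocytes. In stroma, Il6 and Tslp are both known as genes that inflammatory signals such as IL-1 and TNF can induce through NF-κB.

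Values are FPKM, fragments scaled to transcript length and library size, and log2 fold changes are on the log2(FPKM + 1) scale, which understates the change of low genes. A gene was called at an adjusted p under 0.05 in limma's empirical Bayes test, with Benjamini-Hochberg adjustment over the 12279 genes tested. The summed FPKM of a library lay between 344208 and 370025, and the depth in reads is unknown. Hsf1 had 3.65, 7.64 and 5.92 FPKM in knock-out cells with LiCl, against 14.5, 13.3 and 11.2 FPKM in WT cells with LiCl. Without LiCl it had 0.94, 3.89 and 2.07 FPKM in knock-out cells, against 11.1, 7.96 and 8.17 FPKM in WT cells. Hsf1 was thus lower in every knock-out library than in every WT library of the same treatment, by log2 fold changes of −1.10 with LiCl and −1.70 without it (adjusted p = 0.0159 and 0.00142, limma), but it was not absent. Of 12 fibroblast markers 11 fell with LiCl in each genotype, where 21.1% of all genes were lower in knock-out cells and 27.1% in WT cells. The summed level of these markers was 1265 to 1432 FPKM in knock-out cells with LiCl and 2928 to 3216 FPKM in knock-out cells, against 1277 to 1327 FPKM in WT cells with LiCl and 4621 to 4983 FPKM in WT cells. Macrophage markers, 11 of 12 in the table, were all 11 lower with LiCl in knock-out cells and all 11 higher in knock-out cells than in WT cells without LiCl. With LiCl 4 were higher and 2 lower in knock-out cells than in WT cells, and in WT cells LiCl raised 2 and lowered 5. Of all genes, 17.8% were higher in knock-out cells than in WT cells without LiCl. With LiCl 19.6% were higher and 23.0% lower, and LiCl raised 38.1% in WT cells. The macrophage markers summed to 101 to 116 FPKM in knock-out cells with LiCl and 1323 to 1534 FPKM in knock-out cells, against 40.7 to 44.5 FPKM in WT cells with LiCl and 114 to 121 FPKM in WT cells. Ptprc, which defines leukocytes, and Aif1, a macrophage gene, had 3.57 to 3.94 and 2.35 to 2.73 FPKM in knock-out cells and were listed at 0 in the 9 other libraries. Within the WT sums, Lyz2 averaged 9.50 FPKM with LiCl and 92.6 FPKM without it, while Cd68 had 10.9 and 3.39 FPKM and Cd14 had 20.8 and 12.7 FPKM. Epithelial markers, 5 of 11 in the table, summed to 33.0 to 36.4 FPKM in knock-out cells with LiCl and 3.32 to 5.04 FPKM in knock-out cells, against 26.7 to 29.6 FPKM in WT cells with LiCl and 8.35 to 9.96 FPKM in WT cells. The defining Epcam and Cdh1 were not in the table, nor was Pecam1, and 2 of 9 endothelial and 1 of 10 mast cell and lymphocyte markers were. In such bulk RNA, fewer cells of a type and less RNA per cell cannot be told apart.

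LiCl lowered most of these genes. In knock-out cells 5 of the 9 tested fell and Lif rose, where 21.1% of all genes were lower and 36.5% higher (57.6% in either direction). In WT cells 8 of the 9 fell and none rose, where 27.1% of all genes were lower and 38.1% higher (65.2% in either direction), and Il11 was the one that did not pass. Groups with and without LiCl did not overlap for 62.0% of all genes in knock-out cells and 70.0% in WT cells, so a lack of overlap was common. The median log2 fold change of the 9 genes was −1.49 in knock-out cells, beside 0.16 over all genes, and −1.58 in WT cells, beside 0.13 over all genes. After rescaling of the libraries by the median of ratios, the medians over all genes were −0.01 and −0.02. Rescaling also turned the share of calls that were higher to 48.3% in knock-out cells, against 63.3% before it, and to 48.8% in WT cells, against 58.4%. Among the 9 genes it ended the rise of Lif in knock-out cells and brought the fall of Il11 past the threshold in both genotypes. The log2 fold changes relative to the median of all genes were 0.10 for Lif in knock-out cells and −0.49 and −0.41 for Il11 in knock-out cells and WT cells.

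**Figure D1:**
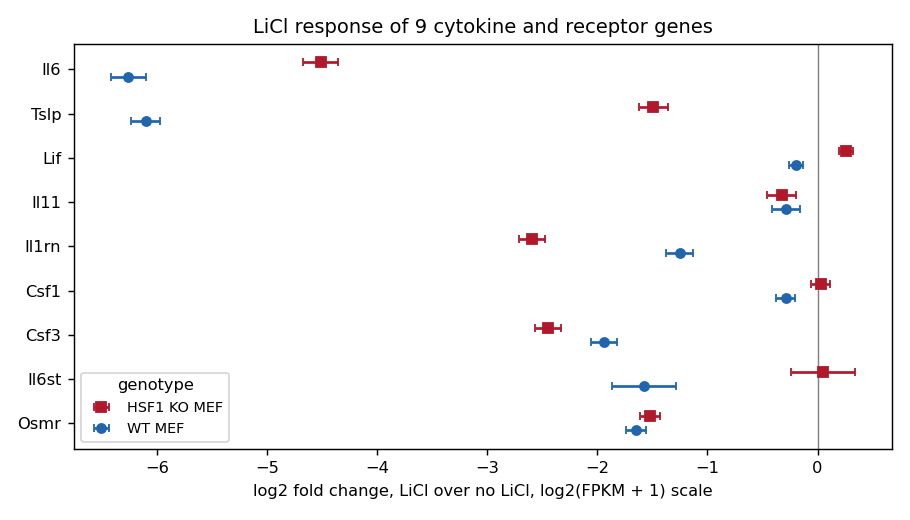
Log2 fold change with LiCl (horizontal axis, log2(FPKM + 1) scale) of the 9 tested genes in knock-out cells (squares) and WT cells (circles), with bars of 1 standard error of the fit. Il6 lies at −4.51 and −6.26, Tslp at −1.49 and −6.10, and Lif and Csf1 lie close to 0 in both genotypes.

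Il6 (ENSMUSG00000025746.11, chr5:30013114-30019981, plus strand, GRCm38) encodes interleukin-6 and is shown with its promoter because its fall was among the largest in the data. The window of 250 bases before and 50 bases after the start site was taken from RefSeq (GRCm38.p6, chr5:30012864-30013163, plus strand). Capitals mark, in order, an AP-1 motif (TGANTCA), a C/EBP motif (TTNNGNAAT) and an NF-κB motif (GGANNTTCC), which are names for the factor families known to bind such letters.
Il6 promoter: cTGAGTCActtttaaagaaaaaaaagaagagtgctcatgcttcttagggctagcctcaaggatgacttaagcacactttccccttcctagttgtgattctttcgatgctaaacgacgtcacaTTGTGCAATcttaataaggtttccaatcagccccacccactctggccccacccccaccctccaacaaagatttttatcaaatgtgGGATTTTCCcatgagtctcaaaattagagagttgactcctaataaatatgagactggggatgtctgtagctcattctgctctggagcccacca
The NF-κB letters lay 43 to 35 bases before the start site and the C/EBP letters 128 to 120 bases before it. Both strands were searched, and these letters occurred in 7.81% (AP-1), 11.5% (C/EBP) and 4.26% (NF-κB) of all 32851 windows of that length. The heat shock element core GAANNTTC (7.86% of windows), the cyclic AMP element TGACGTCA (1.79%) and the TCF/LEF letters CTTTGAT (3.73%) had no match in the window. Only these exact letters were searched. The study names wider TCF sites, CTTTGWWS and, for repression, AGAWAW, where W is A or T and S is C or G. The window holds letters that fit each, caacaaag (on the other strand) and agaaaa. Their share over all windows was not computed. A match is a description of the letters only. Of the 10 genes 8 had a window in the table, Tslp and Csf3 had none, and the heat shock letters were found in 1 of 12 windows of these 8 genes, that of Il6st.

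Il6 was nearly lost with LiCl in both genotypes. It had 2.66, 2.50 and 1.71 FPKM in knock-out cells with LiCl, against 72.0, 68.8 and 80.4 FPKM in knock-out cells. In WT cells with LiCl it had 0.81, 1.06 and 0.38 FPKM, against 119, 145 and 132 FPKM in WT cells. No library with LiCl came near any library without it, and the means differed 32.2-fold in knock-out cells and 176-fold in WT cells. The log2 fold change was −4.51 (standard error 0.16, adjusted p = 3.03e-09, limma) in knock-out cells and −6.26 (standard error 0.16, adjusted p = 1.65e-10) in WT cells, where only 3 of the 12279 genes fell more. Tested directly, the response of knock-out cells minus that of WT cells was 1.75 (standard error 0.22, adjusted p = 0.000157). Without LiCl, Il6 was lower in knock-out cells than in WT cells by a log2 fold change of −0.83 (adjusted p = 0.00165). With LiCl the order was the other way round, at 0.92 (adjusted p = 0.000755), and the libraries of the genotypes did not overlap in either condition. These comparisons share their libraries and are not independent of each other.

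The table splits Il6 into 4 overlapping transcripts, and the split varied between libraries of a group. The one with the highest mean over the 12 libraries, ENSMUST00000199765.1, had 33.2, 72.3 and 21.2 FPKM in WT cells, whereas ENSMUST00000199183.4 had 52.2, 46.4 and 50.7 FPKM there. With ENSMUST00000199765.1 in place of the sum, the difference between the LiCl responses was 0.83 (adjusted p = 0.329) and both genotype differences missed the threshold, while the falls with LiCl passed it. In a fit of transcripts one by one, added after the values were seen, ENSMUST00000199183.4 had a difference between the responses of 1.71 (adjusted p = 0.00034, where 11.1% of 23003 transcripts passed). Its value in knock-out cells against WT cells was −1.45 without LiCl (adjusted p = 4.63e-05) and 0.26 with it (adjusted p = 0.266).

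**Figure D2:**
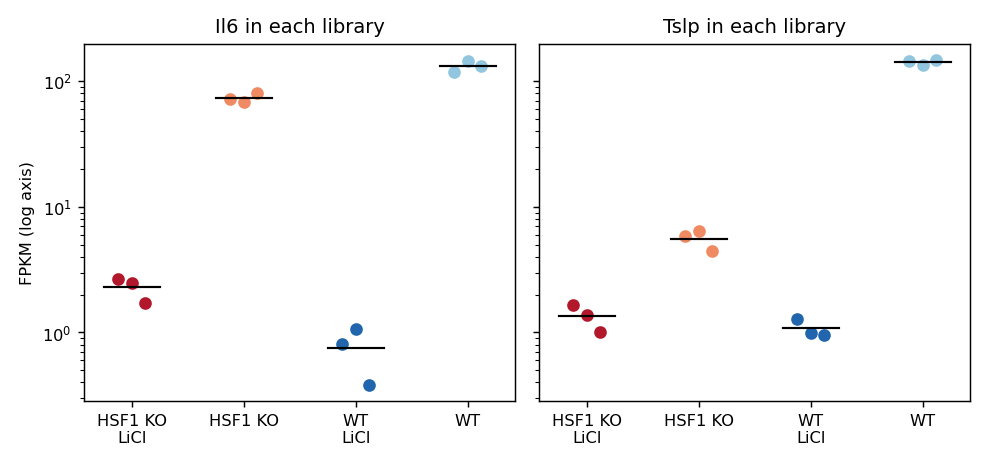
FPKM (vertical log axis) of Il6 and Tslp in each of the 12 libraries, with a line at the mean of each group. For Il6 the 3 libraries with LiCl lie at 1.71 to 2.66 FPKM in knock-out cells and 0.38 to 1.06 FPKM in WT cells, and Tslp is low in all groups except WT cells.

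Lif, which encodes the leukemia inhibitory factor known for holding mouse stem cells in their undifferentiated state, stayed at a high level throughout. Its values were 30.4, 30.6 and 28.8 FPKM in knock-out cells with LiCl and 24.3, 23.3 and 27.0 FPKM in knock-out cells, against 37.1, 34.6 and 35.4 FPKM in WT cells with LiCl and 40.9, 42.1 and 39.7 FPKM in WT cells. The groups did not overlap, but the steps between them were small. The log2 fold change with LiCl was 0.26 (standard error 0.06, adjusted p = 0.00451) in knock-out cells and −0.19 (standard error 0.06, adjusted p = 0.0195) in WT cells, and the responses differed by 0.45 (adjusted p = 0.00285). Rescaling moved the value in knock-out cells to 0.06 (adjusted p = 0.446). With the highest transcript, ENSMUST00000066283.11, in place of the sum, neither response nor their difference passed the threshold. The values were 0.16 in knock-out cells, −0.04 in WT cells and 0.20 for the difference (adjusted p = 0.239, 0.746 and 0.374, limma). The other transcript, ENSMUST00000040750.3, varied within a group and had 6.12, 11.9 and 2.76 FPKM in WT cells. The call in WT cells was lost without LiCl library 2 (−0.17, adjusted p = 0.0682), without the unnumbered LiCl library (−0.19, adjusted p = 0.0515) or without WT library 2 (−0.17, adjusted p = 0.066). Lif was lower in knock-out cells than in WT cells without LiCl (log2 fold change −0.70, adjusted p = 6.48e-06) and with it (−0.25, adjusted p = 0.00881).

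Il11, whose product shares the Il6st chain and is known from fibroblasts and bone marrow stroma, was the lowest of the 3 family cytokines in cells without LiCl. It had 1.53, 1.99 and 1.37 FPKM in knock-out cells with LiCl and 2.07, 2.38 and 2.40 FPKM in knock-out cells, against 3.39, 5.13 and 4.08 FPKM in WT cells with LiCl and 5.54, 5.35 and 4.96 FPKM in WT cells. The genotype separated the libraries more than LiCl did. Il11 was lower in knock-out cells without LiCl (log2 fold change −0.94, adjusted p = 0.000194) and with it (−0.98, adjusted p = 0.000133). The values with LiCl were −0.33 in knock-out cells and −0.29 in WT cells (adjusted p = 0.052 and 0.075). The value in knock-out cells passed the threshold without knock-out LiCl library 2 (−0.42, adjusted p = 0.024) and without WT LiCl library 1 or 2 (adjusted p = 0.034 and 0.0291), and that in WT cells passed without WT LiCl library 2 (−0.41, adjusted p = 0.0154).

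Among the other IL6 family cytokines, 8 of 12 listed genes were in the table and tested, Il6, Lif and Il11 included. With LiCl 1 was higher and 3 lower in each genotype, where 57.6% of all genes were called in knock-out cells and 65.2% in WT cells. Ebi3, a subunit of the cytokines IL-27 and IL-35, had 4.74, 4.51 and 5.29 FPKM in knock-out cells and no more than 0.42 FPKM in any other library. Its log2 fold change was −2.09 with LiCl in knock-out cells and 2.32 in knock-out cells against WT cells without LiCl (adjusted p = 1.01e-07 and 6.80e-08, limma). The macrophage markers moved in the same directions in these comparisons, and their part in the result was not tested.

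The receptor chains Il6st and Osmr were lower in each knock-out library, with LiCl or without it, than in each WT library without LiCl. Il6st, the chain shared by the family, had 13.0, 22.2 and 18.6 FPKM in knock-out cells with LiCl and 12.6, 17.7 and 21.6 FPKM in knock-out cells, against 15.6, 29.1 and 12.4 FPKM in WT cells with LiCl and 60.5, 52.0 and 53.8 FPKM in WT cells. The 3 WT libraries without LiCl stood above the 9 others, which overlapped one another. The log2 fold change with LiCl was 0.05 (standard error 0.29, adjusted p = 0.896) in knock-out cells and −1.58 (standard error 0.29, adjusted p = 0.00066) in WT cells, and the difference was 1.63 (standard error 0.41, adjusted p = 0.012). Against WT cells, Il6st in knock-out cells was at −1.65 without LiCl (adjusted p = 0.00105) and at −0.02 with it (adjusted p = 0.958). The sum includes ENSMUST00000070731.10, which had 2.09, 19.2 and 0.02 FPKM in WT cells with LiCl. In the fit of transcripts one by one, the main transcript ENSMUST00000183663.7 had a difference between the responses of 1.31 (adjusted p = 0.0507, limma). That missed the threshold, whereas with this transcript in place of the sum the difference passed it.

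Osmr fell with LiCl in both genotypes, and it was lower in knock-out cells in both conditions. It had 10.95, 9.89 and 11.9 FPKM in knock-out cells with LiCl and 31.3, 31.2 and 37.2 FPKM in knock-out cells, against 22.4, 23.2 and 24.9 FPKM in WT cells with LiCl and 71.9, 73.6 and 82.2 FPKM in WT cells. The 4 groups did not overlap. Log2 fold changes with LiCl were −1.52 in knock-out cells and −1.65 in WT cells (standard error 0.09 each, adjusted p = 1.53e-07 and 4.60e-08), and the difference of 0.13 missed the threshold (adjusted p = 0.507). The genotype differences were −1.17 without LiCl and −1.04 with LiCl (adjusted p = 1.91e-06 and 5.21e-06).

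Of the 8 listed receptor genes 6 were in the table, and the ligand-binding chains did not move together. In knock-out cells 2 were higher with LiCl and 1 was lower, and in WT cells 1 was higher and 4 were lower, where 57.6% and 65.2% of all genes were called. Il6ra, the chain that binds interleukin-6 itself, averaged 2.26 ± 0.54 FPKM in knock-out cells with LiCl against 0.967 ± 0.16 FPKM in knock-out cells, and 10.1 ± 2.4 FPKM in WT cells with LiCl against 1.97 ± 0.33 FPKM in WT cells (SD, n = 3). It thus rose while its ligand fell, with log2 fold changes of 0.72 and 1.88 (adjusted p = 0.00476 and 3.31e-06) that differed by −1.16 (adjusted p = 0.00467). Lifr, the chain that binds LIF, had a log2 fold change of −0.23 in knock-out cells (adjusted p = 0.221) and −1.13 in WT cells (adjusted p = 5.35e-05), and the difference was 0.90 (adjusted p = 0.00775).

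Genes that STAT3 is known to activate fell and rose in part. Of 20 listed, 5 were higher and 7 lower with LiCl in knock-out cells, and 5 were higher and 10 lower in WT cells. Over all genes, 36.5% were higher and 21.1% lower in knock-out cells, and 38.1% were higher and 27.1% lower in WT cells. Cebpd, which encodes C/EBPδ, a factor that also binds the Il6 promoter in known settings, had 1.73, 1.59 and 1.23 FPKM in knock-out cells with LiCl against 44.7, 41.0 and 33.1 FPKM in knock-out cells. In WT cells it had 2.23, 1.61 and 1.71 FPKM with LiCl and 87.0, 88.5 and 72.0 FPKM without it. The log2 fold changes of −4.00 and −4.87 (adjusted p = 2.59e-09 and 3.14e-10) put its libraries with and without LiCl far apart in both genotypes. Socs3, the feedback inhibitor, averaged 3.94 ± 0.39 FPKM in knock-out cells with LiCl and 11.6 ± 1.1 FPKM in knock-out cells, against 5.02 ± 0.30 FPKM in WT cells with LiCl and 26.6 ± 2.4 FPKM in WT cells (SD, n = 3). Its log2 fold changes were −1.35 and −2.19 (adjusted p = 7.34e-07 and 8.78e-09). Icam1, an adhesion molecule, and Mcl1, a survival factor of the BCL2 family, went the other way. Icam1 had a log2 fold change of 2.14 in knock-out cells and 2.69 in WT cells, and Mcl1 had 0.36 and 1.31 (adjusted p at most 0.000124). Myc had −0.32 in knock-out cells (adjusted p = 0.105) and −2.09 in WT cells (adjusted p = 5.27e-07), with a difference of 1.78 (adjusted p = 0.00013).

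Of 18 listed JAK and STAT signaling genes 17 were tested. With LiCl 6 were higher and 7 lower in knock-out cells and 5 higher and 8 lower in WT cells, where 57.6% and 65.2% of all genes were called. Jak1, a kinase at the Il6st chain, fell with log2 fold changes of −0.39 in knock-out cells and −0.88 in WT cells (adjusted p = 0.000112 and 1.31e-07). Gab1, a docking protein of the pathway's MAP kinase arm, rose by 1.12 and 1.35 (adjusted p = 1.20e-06 and 1.54e-07). Stat3 itself, named here outside the rule because the pathway runs through it, had 23.2 ± 2.7 FPKM in knock-out cells with LiCl and 41.8 ± 2.3 FPKM in knock-out cells, against 30.2 ± 4.1 FPKM in WT cells with LiCl and 61.1 ± 2.1 FPKM in WT cells (SD, n = 3). Its log2 fold changes were −0.82 and −0.999 (adjusted p = 5.60e-05 and 8.45e-06).

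**Figure D3:**
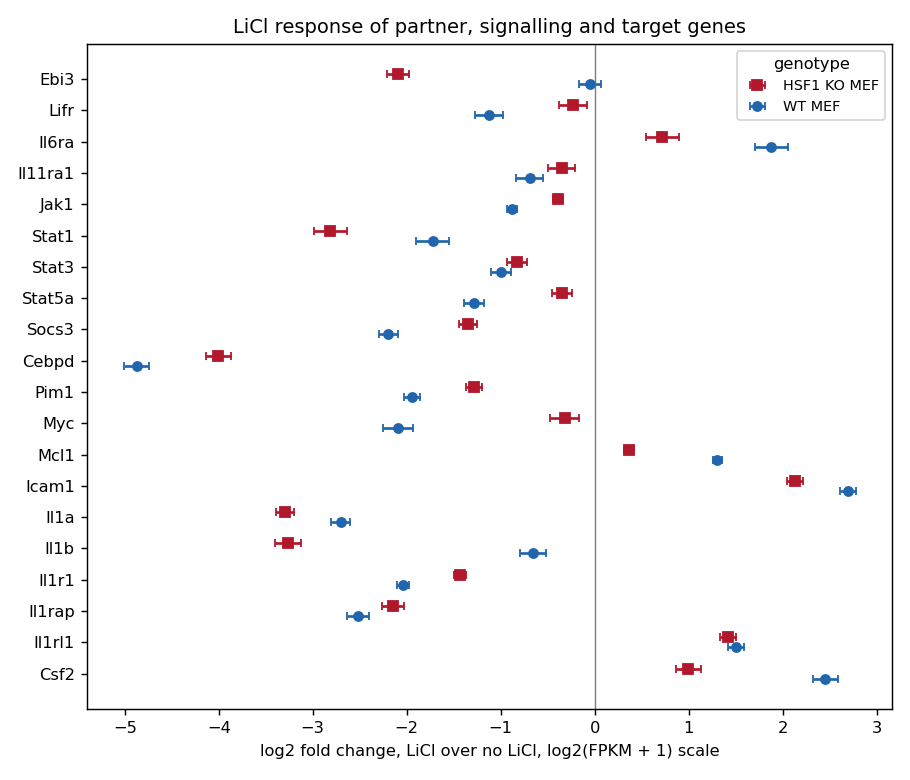
Log2 fold change with LiCl (horizontal axis, log2(FPKM + 1) scale) of 20 cytokine partner, receptor, signaling and target genes in knock-out cells (squares) and WT cells (circles), with bars of 1 standard error of the fit. Cebpd lies at −4.00 and −4.87 and Icam1 at 2.14 and 2.69, and the chain Il6ra lies right of 0 in both genotypes.

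Tslp (ENSMUSG00000024379.4, chr18:32815383-32819797, plus strand, GRCm38) was high in WT cells without LiCl and low in the 3 other groups. It had 1.64, 1.39 and 1.00 FPKM in knock-out cells with LiCl and 5.88, 6.43 and 4.48 FPKM in knock-out cells, against 1.28, 0.99 and 0.96 FPKM in WT cells with LiCl and 144, 134 and 147 FPKM in WT cells. Each WT library without LiCl lay above 130 FPKM, while the 9 others were below 7 FPKM, and the libraries with LiCl of the genotypes overlapped. The log2 fold change with LiCl was −1.49 (standard error 0.13, adjusted p = 3.89e-06) in knock-out cells and −6.10 (standard error 0.13, adjusted p = 7.77e-11) in WT cells, where the means differed 132-fold and 4 genes fell more. In knock-out cells the means differed 4.17-fold. The responses differed by 4.61 (standard error 0.19, adjusted p = 8.12e-08). The mean of 5.60 FPKM in knock-out cells without LiCl, against 142 FPKM in WT cells, bounds how far Tslp could fall there. Part of this difference was thus fixed by the levels without LiCl. Without LiCl, Tslp was 25.3-fold lower in knock-out cells than in WT cells, a log2 fold change of −4.44 (adjusted p = 1.60e-09) that was the ninth largest fall of that comparison. With LiCl the value was 0.17 (adjusted p = 0.348).

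The genes around TSLP were measured at low levels. The receptor is made of the chains encoded by Crlf2 and Il7r, and Il2rg encodes the chain with which Il7r forms the IL-7 receptor. Crlf2 had 7.41 ± 0.98 FPKM in knock-out cells with LiCl and 8.66 ± 0.61 FPKM in knock-out cells, against 9.02 ± 2.1 FPKM in WT cells with LiCl and 15.0 ± 4.4 FPKM in WT cells (SD, n = 3). Its log2 fold change with LiCl was −0.20 in knock-out cells (adjusted p = 0.439) and −0.65 in WT cells (adjusted p = 0.0197). Il7r averaged 2.95 ± 0.58 FPKM in knock-out cells and at most 0.106 FPKM in the 3 other groups, a gene known from leukocytes like Il2rg. Il2rg averaged 1.62 ± 0.57 FPKM in knock-out cells with LiCl and 4.51 ± 0.17 FPKM in knock-out cells, against 1.94 ± 0.41 FPKM in WT cells with LiCl and 0.354 ± 0.28 FPKM in WT cells (SD, n = 3). With LiCl it fell in knock-out cells (log2 fold change −1.10, adjusted p = 0.000447) and rose in WT cells (1.13, adjusted p = 0.000291). The macrophage markers were likewise highest in knock-out cells without LiCl, and in WT cells with LiCl 2 of 11 were higher and 5 lower. Their part in the result was not tested.

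Il6 and Tslp shared some but not all of their pattern over the 12 libraries (Pearson's r = 0.83 on the log2 scale, a description of libraries that fall into 4 groups). The 5 genes most correlated with Il6 were Gm2115 (r = 0.996), the follistatin gene Fst (0.995), Nfkbiz, which encodes an inducible nuclear IκB protein (0.994), Cdk14 (0.994) and the kinase gene Pim1 (0.994). Nfkbiz had 11.1 ± 0.28 FPKM in knock-out cells with LiCl and 45.2 ± 5.3 FPKM in knock-out cells, against 9.16 ± 0.08 FPKM in WT cells with LiCl and 68.2 ± 4.2 FPKM in WT cells (SD, n = 3). Tslp was most correlated with the eotaxin gene Ccl11 (r = 0.997), Cmya5 (0.997), the mitochondrial superoxide dismutase gene Sod2 (0.996), Errfi1 (0.994) and Esm1 (0.993). Ccl11 had 1.82 ± 0.07 FPKM in knock-out cells and 37.7 ± 0.73 FPKM in WT cells and was listed at 0 in each knock-out library with LiCl.

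Il1rn (ENSMUSG00000026981.15, chr2:24336853-24351494, plus strand, GRCm38) encodes the IL-1 receptor antagonist, which occupies the IL-1 receptor without signaling. The human gene is known to give a secreted and an intracellular form that begin at separate first exons. In the table the mouse transcripts also began at 2 places, and they are shown because the genotypes differed in the share from each. Both windows are from RefSeq (GRCm38.p6, plus strand), the upstream one at chr2:24336610-24336909 and the downstream one at chr2:24345041-24345340. Capitals mark an AP-1 motif (TGANTCA) in the upstream window and a C/EBP motif (TTNNGNAAT) in the downstream one.
Il1rn upstream promoter: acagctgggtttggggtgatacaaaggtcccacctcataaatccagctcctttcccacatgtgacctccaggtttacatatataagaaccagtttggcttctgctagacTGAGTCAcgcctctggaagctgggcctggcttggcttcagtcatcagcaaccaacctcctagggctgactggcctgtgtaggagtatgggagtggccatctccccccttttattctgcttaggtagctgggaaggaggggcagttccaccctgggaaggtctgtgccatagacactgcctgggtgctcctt
Il1rn downstream promoter: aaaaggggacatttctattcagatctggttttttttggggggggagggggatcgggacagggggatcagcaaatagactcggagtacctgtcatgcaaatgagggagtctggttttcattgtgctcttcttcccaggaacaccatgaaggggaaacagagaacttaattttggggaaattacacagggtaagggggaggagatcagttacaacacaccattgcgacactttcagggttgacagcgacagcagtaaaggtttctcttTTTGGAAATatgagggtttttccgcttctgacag
The AP-1 letters lay 141 to 135 bases before the upstream start, and the C/EBP letters at bases 17 to 25 from the downstream one. RefSeq gives another downstream start, with a window at chr2:24345121-24345420 that is not printed. The same C/EBP letters lay 64 to 56 bases before that start, so their place depends on the start chosen. No other match to the exact letters searched for Il6 was found in any of these windows. The wider TCF sites that the study names were not searched in them.

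As a whole, Il1rn fell with LiCl in both genotypes and fell more in knock-out cells. It had 1.69, 1.39 and 1.24 FPKM in knock-out cells with LiCl and 11.5, 13.7 and 16.4 FPKM in knock-out cells, against 6.47, 6.45 and 6.21 FPKM in WT cells with LiCl and 15.2, 18.1 and 16.6 FPKM in WT cells. The genotypes overlapped without LiCl and lay well apart with it. Log2 fold changes with LiCl were −2.60 (standard error 0.12, adjusted p = 2.62e-08) in knock-out cells and −1.25 (standard error 0.12, adjusted p = 4.68e-06) in WT cells, and they differed by −1.34 (standard error 0.17, adjusted p = 0.000169). With the highest transcript, ENSMUST00000114487.8, in place of the sum, the difference was −0.38 (adjusted p = 0.155, limma). The genotype difference was −1.60 with LiCl (adjusted p = 1.85e-06) and −0.26 without it (adjusted p = 0.127), a value that passed the threshold without the unnumbered knock-out library (−0.38, adjusted p = 0.0282). The macrophage markers also fell more with LiCl in knock-out cells. There 11 of 11 were lower (median log2 fold change −3.40), against 5 lower and 2 higher in WT cells (median −0.50). Their difference was called for all 11, where 15.3% of all genes passed in that direction. The part of the markers in the result was not tested.

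By start site, the genotypes differed without LiCl too. Transcripts from the downstream start summed to 7.05, 8.70 and 10.5 FPKM in knock-out cells, against 1.54, 3.66 and 2.10 FPKM in WT cells. Those from the upstream start summed to 4.45, 4.96 and 5.82 FPKM in knock-out cells, against 13.6, 14.4 and 14.5 FPKM in WT cells. The downstream start thus carried 63.2% ± 1.6 of the Il1rn sum in knock-out cells and 14.4% ± 5.2 in WT cells (SD, n = 3), and it carried 60.9% ± 1.2 in knock-out cells with LiCl. In WT cells with LiCl the share was 1.31% in library 1, 0.254% in library 2 and 16.7% in the unnumbered library, with a mean of 6.07% over the 3 and 0.78% without the unnumbered library. In the fit of transcripts one by one, the main downstream transcript ENSMUST00000114482.2 was higher in knock-out cells than in WT cells (log2 fold change 1.56, adjusted p = 0.00237) and the main upstream one, ENSMUST00000114487.8, was lower (−1.43, adjusted p = 4.05e-05). In that fit 15.3% of 23003 transcripts were called in this comparison. The macrophage markers were 11 of 11 higher in knock-out cells without LiCl, as was the downstream transcript, and their part in the result was not tested. With LiCl the downstream share was higher in each knock-out library than in each WT library, and of the macrophage markers 4 of 11 were higher and 2 lower in knock-out cells.

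**Figure D4:**
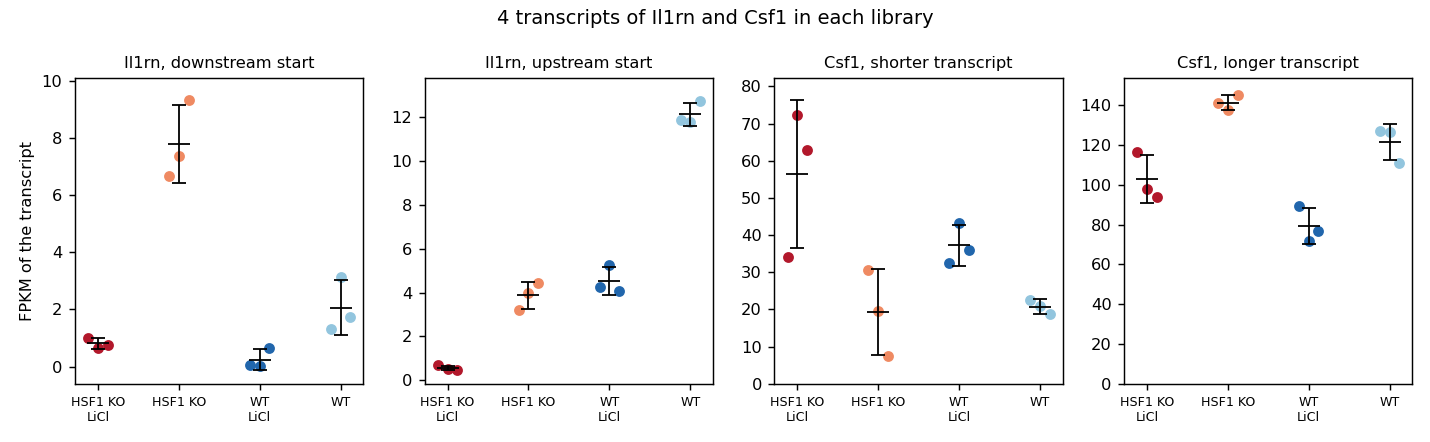
FPKM (vertical axes) of the main downstream and upstream transcripts of Il1rn and of the shorter (ENSMUST00000120243.7) and longer (ENSMUST00000014743.9) main transcripts of Csf1 in each library, with the mean and 1 SD of 3 libraries. The downstream Il1rn transcript averages 7.80 FPKM in knock-out cells and 2.06 FPKM in WT cells, and the upstream one averages 3.88 and 12.1 FPKM.

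Il33, an alarmin of the IL-1 family that acts through the receptor encoded by Il1rl1, was at the edge of detection. It had 0.09, 0.89 and 0.96 FPKM in WT cells and was listed at 0 in the 9 other libraries, so no fold is given. Its receptor gene was abundant. Il1rl1 had 96.0, 86.1 and 94.0 FPKM in knock-out cells with LiCl and 34.4, 30.5 and 37.0 FPKM in knock-out cells, against 221, 231 and 244 FPKM in WT cells with LiCl and 76.7, 77.7 and 89.3 FPKM in WT cells. The log2 fold changes with LiCl were 1.42 and 1.504 (adjusted p = 1.57e-07 and 5.55e-08), and their difference of −0.09 missed the threshold (adjusted p = 0.624).

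Among the other IL-1 genes, a cytokine and both chains of its receptor fell with LiCl in both genotypes. Of 23 listed genes 19 were in the table and 17 tested. With LiCl 5 were higher and 7 lower in knock-out cells, against 7 higher and 8 lower in WT cells, where 57.6% and 65.2% of all genes were called. Il1a, which encodes IL-1α, averaged 0.255 ± 0.16 FPKM in knock-out cells with LiCl and 11.3 ± 0.55 FPKM in knock-out cells, against 0.207 ± 0.065 FPKM in WT cells with LiCl and 6.86 ± 0.25 FPKM in WT cells (SD, n = 3). Its log2 fold changes were −3.29 and −2.70 (adjusted p = 1.18e-09 and 1.92e-09). The signaling receptor gene Il1r1 had −1.43 and −2.04 (adjusted p = 1.83e-08 and 6.81e-10), and the gene of its accessory chain, Il1rap, had −2.14 and −2.51 (adjusted p = 7.74e-08 and 1.18e-08). Il1b had 10.3, 11.2 and 10.7 FPKM in knock-out cells and at most 0.97 FPKM in any other library. IL-1β is known as a product of macrophages, whose markers were highest in the same 3 libraries, and their part in the result was not tested.

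Csf1, the growth factor of macrophages, was the most abundant of the 10 genes in every group. It had 171, 194 and 183 FPKM in knock-out cells with LiCl and 190, 177 and 169 FPKM in knock-out cells, against 144, 137 and 131 FPKM in WT cells with LiCl and 176, 183 and 147 FPKM in WT cells. In knock-out cells the groups overlapped (log2 fold change 0.03, adjusted p = 0.788). In WT cells the value was −0.29 (standard error 0.09, adjusted p = 0.0129), which became −0.23 (adjusted p = 0.0555) without WT library 2. With LiCl, Csf1 was higher in knock-out cells by 0.41 (adjusted p = 0.00308), and without it the value was 0.09 (adjusted p = 0.465). The difference between the responses was 0.32 (adjusted p = 0.073) and passed the threshold without the unnumbered WT library (0.42, adjusted p = 0.0104).

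The Csf1 sum covered transcripts that moved apart. The longest, ENSMUST00000014743.9 (4176 bases), had 103 ± 12 FPKM in knock-out cells with LiCl and 141 ± 3.7 FPKM in knock-out cells, against 79.1 ± 9.0 FPKM in WT cells with LiCl and 121 ± 8.9 FPKM in WT cells (SD, n = 3). It fell in the fit of transcripts one by one, by log2 fold changes of −0.46 and −0.61 (adjusted p = 0.00609 and 0.000795). The shorter ENSMUST00000120243.7 (2097 bases) had 34.2, 72.2 and 63.0 FPKM in knock-out cells with LiCl and 30.6, 19.7 and 7.54 FPKM in knock-out cells, against 32.5, 43.4 and 36.0 FPKM in WT cells with LiCl and 22.6, 21.0 and 18.7 FPKM in WT cells. Its log2 fold changes were 1.63 (adjusted p = 0.0165) and 0.81 (adjusted p = 0.179). In these comparisons 29.1% and 35.9% of all transcripts were called. The transcripts overlap and their values are scaled to their lengths, so both the split and the sum depend on how reads were assigned.

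Csf3 encodes G-CSF, the growth factor of neutrophils, and reached at most 7.11 FPKM. It had 0.44, 0.66 and 0.32 FPKM in knock-out cells with LiCl and 6.97, 7.11 and 6.94 FPKM in knock-out cells. In WT cells with LiCl it was listed at 0 in 2 libraries and at 0.14 FPKM in library 2, against 3.66, 2.87 and 2.59 FPKM in WT cells. The log2 fold changes with LiCl were −2.45 and −1.94 (standard error 0.12 each, adjusted p = 3.15e-08 and 1.05e-07), and Csf3 was higher in knock-out cells than in WT cells by 0.99 without LiCl and 0.49 with it (adjusted p = 5.79e-05 and 0.00664). The responses differed by −0.51 (adjusted p = 0.0411) with a pseudocount of 1 and by 0.86 (adjusted p = 0.223) with one of 0.1, so the data give no direction for that difference. It also missed the threshold in 10 of 12 fits with 1 library left out (adjusted p up to 0.0952). The macrophage markers were higher in knock-out cells without LiCl as well, and their part in the result was not tested.

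Of 12 listed colony-stimulating factor and receptor genes 9 were in the table and tested. With LiCl 2 were higher and 4 lower in knock-out cells, and 1 was higher and 6 lower in WT cells, where 57.6% and 65.2% of all genes were called. Csf2, which encodes GM-CSF, was the one that rose in WT cells. It had 3.64, 3.44 and 2.87 FPKM in knock-out cells with LiCl against 1.02, 1.01 and 1.46 FPKM in knock-out cells, and 8.30, 10.1 and 8.54 FPKM in WT cells with LiCl against 0.574, 0.854 and 1.051 FPKM in WT cells. The log2 fold changes were 1.00 and 2.46 (adjusted p = 7.57e-05 and 3.79e-08), and they differed by −1.46 (adjusted p = 0.000166). The receptor gene Csf1r, a macrophage marker, had 13.2, 13.0 and 13.4 FPKM in knock-out cells and at most 1.29 FPKM in any other library.

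**Figure D5:**
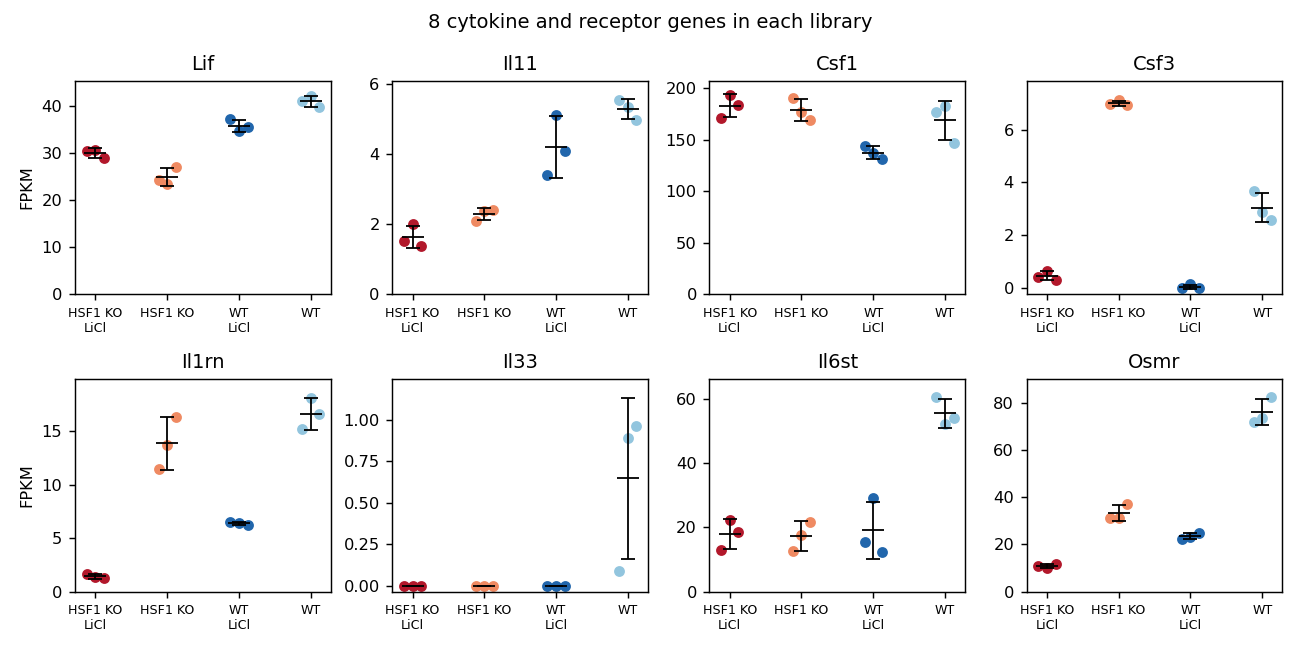
FPKM (vertical axes, linear) of Lif, Il11, Csf1, Csf3, Il1rn, Il33, Il6st and Osmr in each library, with the mean and 1 SD of 3 libraries per group. Csf1 stays between 131 and 194 FPKM throughout, Il6st is raised in WT cells alone, at 52.0 to 60.5 FPKM, and Il33 is listed at 0 outside WT cells.

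Counted over the 9 tested genes, knock-out cells without LiCl had 1 higher and 6 lower than WT cells, where 17.8% of all genes were higher and 20.4% lower (38.1% in either direction, with 49.5% of all genes not overlapping), with a median log2 fold change of −0.83 beside −0.03 over all genes. With LiCl 3 were higher and 4 lower, where 19.6% of all genes were higher and 23.0% lower (42.6% in either direction, with 53.0% not overlapping). The difference between the LiCl responses was past the threshold for 6 of the 9, namely Il6, Tslp, Lif, Il6st, Il1rn and Csf3, where 31.3% of all genes passed. It was positive for the first 4, where 16.1% of all genes passed in that direction and 15.3% in the other, so their log2 fold change with LiCl was the higher one in knock-out cells. Il11, Csf1 and Osmr did not pass, with differences of −0.04, 0.32 and 0.13. With the highest transcript in place of the sum, 2 of the 9 passed. The 31.3% of all genes refers to the sums, and the share with that setting is not given here.

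Ordered by level, the genes kept few ranks between groups. In knock-out cells with LiCl the order was Csf1, Lif, Il6st, Osmr, then Il6, Il11, Il1rn and Tslp, of which each overlapped the next, and then Csf3. In knock-out cells it was Csf1, Il6, Osmr, Lif, Il6st, Il1rn, Csf3, Tslp and Il11, where only Il6st and Il1rn overlapped. In WT cells with LiCl it was Csf1, Lif, Osmr, Il6st, Il1rn, Il11, Tslp, Il6 and Csf3, where Osmr and Il6st, and Tslp and Il6, overlapped. In WT cells it was Csf1, Tslp and Il6, of which each overlapped the next, and then Osmr, Il6st, Lif, Il1rn, Il11 and Csf3. Il33 was last in every group.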

How the data were processed

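Poly(A) RNA of 12 libraries was sequenced with a stranded kit on a HiSeq instrument. Tools named in the submitters' processing notes were HISAT2 2.0.5 for alignment, cutadapt and StringTie, with the GRCm38 build, while options and annotation release are not given in sources used here. The table of values per transcript deposited by the authors was read here as FPKM from the values themselves, since no source names the unit. Its 27185 transcripts each reach a group mean of 0.50 FPKM, so low transcripts had been left out. Of these, 27115 were matched by ID to GENCODE mouse release M21 (1254 without the version number) and summed to 12988 genes, and 70 (at most 0.136% of a library's sum) were left out. The 12279 genes whose mean reached 0.5 FPKM (709 did not) were compared by limma 3.58.1 in R 4.3.3, on log2(FPKM + 1) and with eBayes trend set, from 1 fit over the 4 groups. The code was tested on simulated data first. All tests were two-sided. Low values of 6230 genes with 1 transcript were searched for a common step, and a step that held in every range was found in 7 of 12 libraries, so reads were not recovered and precision rests on the spread between libraries.

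Members and gene lists were chosen with earlier results of these data known. Every member was named, with up to 4 further genes per list by the smallest adjusted p, the 5 genes most correlated with Il6 and with Tslp, and Hsf1. Stat3, Myc and the transcripts of Il1rn, Csf1 and Il6st fall outside this rule and were chosen after their values were seen. Alternatives were a pseudocount of 0.1, no filter or one at 1 FPKM, median-of-ratios scaling, a replicate block, only the groups compared, the highest transcript in place of the sum and each library left out. Promoter windows are RefSeq, GRCm38.p6. An item that the rule would name is not reported here.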

Additional observations from a re-analysis of the deposited data

Results flagged for a closer look

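The LiCl response differed between the genotypes by a test of the difference itself (limma interaction, response of knock-out cells minus that of WT cells, on the log2 scale) for 6 of the 9 tested genes. The differences were 4.61 for Tslp (adjusted p = 8.12e-08), 1.75 for Il6 (adjusted p = 0.000157), 1.63 for Il6st (adjusted p = 0.012), 0.45 for Lif (adjusted p = 0.00285), −1.34 for Il1rn (adjusted p = 0.000169) and −0.51 for Csf3 (adjusted p = 0.0411). The Csf3 difference was 0.86 with a pseudocount of 0.1 (adjusted p = 0.223) and missed the threshold in 10 of 12 fits with 1 library left out, so its direction is not given by these data. With the highest transcript in place of the sum, the differences of Il6, Lif and Il1rn missed the threshold as well. They were then 0.83, 0.20 and −0.38 (adjusted p = 0.329, 0.374 and 0.155, limma). For Tslp and Il6st the genotypes overlapped with LiCl and lay apart without it, whereas for Il1rn they overlapped without LiCl and lay apart with it. The low level of Tslp in knock-out cells without LiCl bounds its fall there, so part of its difference was fixed by that level. In the fit of transcripts one by one, the main Il6st transcript had a difference of 1.31 that missed the threshold (adjusted p = 0.0507, limma).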

How the results depend on the processing

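Of the values computed for the 10 genes under other settings, 810 kept their side of the threshold, 23 were no longer past it and 15 came past it. A further 2 turned, counting only values past the threshold in at least 1 of the fits compared. The 810 include values past it in neither fit whose direction changed. An example is Il6st with LiCl in knock-out cells, at 0.05 and, after rescaling, −0.14. The cytokine genes past the threshold for the difference between the LiCl responses numbered 2 with the highest transcript in place of the sum, against 6, and Csf1 in knock-out cells then had a log2 fold change of −0.46 with LiCl, against 0.03. The share of all genes past the threshold with that setting is not given here. A pseudocount of 0.1 turned the Csf3 difference to 0.86, against −0.51. Leaving out each library in turn gave 6 to 8 cytokine genes for LiCl in WT cells, 6 to 7 for LiCl in knock-out cells, 5 to 6 for the difference, 7 to 8 for knock-out cells against WT cells without LiCl and 7 in each fit with LiCl. Over all genes the same fits called, in that order, 7479 to 8071, 6474 to 7095, 3390 to 3697, 3971 to 4769 and 4512 to 5270. Il33 came past the threshold only where no filter was applied (−0.67). The depth in reads is unknown, so for genes near 0, such as Csf3 and Il33, the precision of single values cannot be given.

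With the number in the titles as a replicate block, 9 cytokine genes passed for LiCl in WT cells, 7 for LiCl in knock-out cells and 7 for the difference, against 8, 6 and 6, because Il11 (adjusted p = 0.0459 and 0.031) and the Csf1 difference (adjusted p = 0.0441) came past the threshold. The block raised the calls over all genes too, to 8316, 7500 and 4375, against 8010, 7072 and 3846. Deviations of same-numbered libraries correlated at −0.01 to 0.20, over 0.1 in 7 of 18 pairs, which include all 6 pairs of unnumbered libraries (0.125 to 0.195), and a library correlated best with its own number in 21 of 36 cases. The labels do not say what a number stands for, and the study says only that the sequencing was repeated. Since 11 of 18 pairs were at or under 0.1, the numbers were not taken to pair the libraries. What the unnumbered libraries shared, whose 6 pairs were all over 0.1, was not tested.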
